A study of Mus musculus with 2 samples.

Results

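Mir221 and Mir222 are neighbouring microRNA genes on the mouse X chromosome whose main mature products carry the same seed, the short stretch near the 5′ end with which a microRNA pairs to its target messages. They were taken by their GENCODE M21 gene names from tables of 2202 microRNA genes, and both were found, so the pair is 2 of 2202 genes. The samples were left cerebral cortex from female mice of the strain B6CASTF1/J, an F1 cross of a laboratory with a wild-derived strain, 25 days of age, and RNA shorter than 30 nt was read. The labels name no treatment and give 1 group, in 2 libraries numbered as biological replicates 1 and 2. Each is named for its own animal, but both carry 1 donor record. The p-values weigh the difference between these 2 libraries against counting error alone, and that difference may be technical.

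Own-strand counts over all microRNA genes summed to 3017058 in replicate 1 and 3209361 in replicate 2, and levels are given as CPM, counts scaled to that sum. Of the neuronal genes that mark the labelled tissue, Mir139 had 155820 CPM in replicate 1 and 141898 CPM in replicate 2, and Mir132 had 35150.5 CPM in replicate 1 and 33205 CPM in replicate 2, while the Mir124a genes had 0 to 9 counts a library. Reads placed at several loci, 40.3% of reads in replicate 1 and 39.0% in replicate 2, lie outside the gene counts.

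miR-221 and miR-222 are cut from hairpins of a shared primary transcript and guide Argonaute to messages that hold a match to their seed. Their best known targets are the cyclin-dependent kinase inhibitor gene Cdkn1b and the stem cell factor receptor gene Kit. They have been studied in endothelial and smooth muscle cells and, in the brain, in glioma, among other settings. The tables do not separate the arms of a hairpin, so values refer to genes, and no target message was measured.

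The mature sequences are shown because they hold what the pair shares and where its members part. All are on the minus strand of GRCm38.p6, from RefSeq, in which both hairpins and 3 mature arms of the pair matched by symbol. The arms are miR-221-3p at chrX:19146307-19146329, miR-222-3p at chrX:19146901-19146923 and miR-221-5p at chrX:19146344-19146369. miR-1928, at chr1:74206562-74206578, is the sole other mature microRNA of that table with the seed of the 3p arms. Capitals mark the seed, bases 2 to 8 from the 5′ end.
mmu-miR-221-3p: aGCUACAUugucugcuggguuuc
mmu-miR-222-3p: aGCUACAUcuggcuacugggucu
mmu-miR-1928: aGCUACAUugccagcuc
mmu-miR-221-5p: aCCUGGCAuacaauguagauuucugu

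The 3p arms, each 23 bases long, were identical over their first 8 bases and differed at 12 of 23 positions when set side by side without gaps. Without a gap, stretches after the seed that both arms hold at positions offset by a base count as differing. The 12 positions thus overstate how far the arms part. No other listed mature microRNA had the seed of miR-221-5p. Mir1928, the third gene with the 3p seed, had 0 counts in both libraries, which, at 3 counts, allows a level of up to 0.994 CPM for replicate 1 and 0.935 CPM for replicate 2. All own-strand counts of the 3 genes with this seed were thus those of Mir221 and Mir222.

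The hairpins are shown with their listed mature arms in capitals. Mir221 (ENSMUSG00000065422.1) is 95 bases long at chrX:19146294-19146388, and Mir222 (ENSMUSG00000065471.1) is 79 bases long at chrX:19146893-19146971, both on the minus strand of mm10.
Mir221: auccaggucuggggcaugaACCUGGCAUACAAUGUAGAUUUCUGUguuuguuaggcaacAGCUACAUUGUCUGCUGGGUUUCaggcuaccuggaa
Mir222: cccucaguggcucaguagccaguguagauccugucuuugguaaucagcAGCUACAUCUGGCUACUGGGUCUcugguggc

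Mir222 comes first in the direction of transcription, and 504 bases separate the hairpins. Neither overlaps another gene of the M21 annotation. The nearest annotated gene upstream was Gm14636, a noncoding gene on the same strand that ends 10009 bases before Mir222, and the nearest downstream was the pseudogene Gm5383, 203065 bases away. The longest stretch that either hairpin shares with any of the 2201 other counted hairpins was 12 bases. At minimum lengths of 18, 20 and 22 bases, 0 counted hairpins shared a stretch with Mir221 or with Mir222. Copies elsewhere in the genome were not looked for.

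Both genes were well expressed in the cortex, and Mir221 was the higher in each library. Mir221 had 15472 counts in replicate 1 and 16371 in replicate 2, or 5128 CPM (exact Poisson 95% interval 5048 to 5210) and 5101 CPM (5023 to 5180). On library totals the level of Mir221 was thus almost the same in both, with a mean of 5115 ± 19.2 CPM (SD, n = 2), but the SD was 593 CPM with library sizes scaled by the trimmed mean of M values (TMM) and 645 CPM with those of DESeq2. Mir222 had 3431 counts in replicate 1 and 8818 in replicate 2, or 1137 CPM (1099 to 1176) and 2748 CPM (2691 to 2806). Its mean was 1942 ± 1139 CPM (SD, n = 2), with an SD of 924 CPM on TMM sizes and 905 CPM on DESeq2 sizes. The intervals here and below cover counting error alone, because PCR copies without molecular identifiers are not separate molecules.

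Mir221 supplied 0.511% ± 0.00192 of all microRNA gene counts and Mir222 0.194% ± 0.114 (SD, n = 2). Together they made up 0.627% in replicate 1 and 0.785% in replicate 2. By mean CPM, Mir221 ranked 36 of 2202 genes and Mir222 ranked 69. The rank of Mir221 was 40 in replicate 1 and 34 in replicate 2, while that of Mir222 was 90 in replicate 1 and 55 in replicate 2. The column of counts on the opposite strand held 0 counts for both genes in both libraries.

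**Figure D1:**
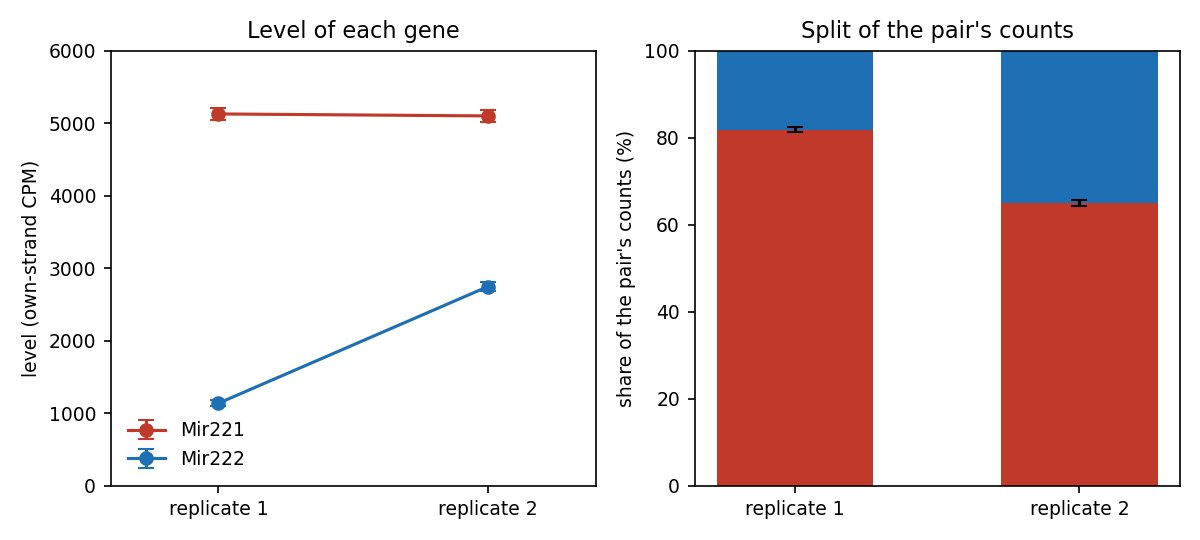
Levels of Mir221 (red) and Mir222 (blue) in each replicate as own-strand CPM with exact Poisson 95% intervals (left), and the split of the counts of both genes between them in percent with exact 95% intervals (right). Mir221 lies at 5128 CPM in replicate 1 and 5101 CPM in replicate 2, whereas Mir222 lies at 1137 CPM in replicate 1 and 2748 CPM in replicate 2.

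The ratio of the genes within a library needs no scaling between libraries, and it differed between the replicates. Mir221 made up 81.8% of the counts of both genes in replicate 1 (exact Clopper-Pearson 95% interval 81.3 to 82.4) and 65.0% in replicate 2 (64.4 to 65.6). Per count of Mir222 there were 4.51 counts of Mir221 in replicate 1 (4.35 to 4.68) and 1.86 in replicate 2 (1.81 to 1.91). Mir221 was thus the higher gene in both libraries, by a margin that differed between them. The ratio was 2.43-fold higher in replicate 1 (95% interval 2.32 to 2.54, a log2 difference of 1.28), with an adjusted p of 1e-300, the lowest value recorded here, by Fisher's exact test (two-sided, Benjamini-Hochberg over all neighbour pairs tested). On mean CPM, Mir221 was 2.63-fold above Mir222, or 2.19-fold per base of hairpin. Counts were not otherwise divided by length, because a read spans a mature arm and both listed 3p arms are equally long.

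Such a shift was common among neighbouring microRNA genes. The same test was run on every pair of adjacent genes on 1 strand with at most 10 kb between them and at least 10 counts per gene, and it called 74 of 94 pairs (78.7%). A call on Mir221 and Mir222 is therefore near the background. Among the other 61 pairs whose genes each averaged 50 CPM or more, the median shift was 0.80 on the absolute log2 scale, or 1.74-fold, with quartiles of 0.43 and 1.15. The shift of Mir221 and Mir222 lay above the upper quartile, with 12 of the 61 pairs larger and 49 smaller. Pairs that follow each other in a cluster share a gene, so these pairs are not independent.

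The largest of these shifts came from the imprinted Dlk1-Dio3 cluster on chromosome 12. There the ratio of Mir299a to Mir380 was 7.51-fold lower in replicate 1 than in replicate 2, that of Mir377 to Mir541 was 6.30-fold lower and that of Mir381 to Mir487b was 5.08-fold lower. The smallest were 1.01-fold for Mir17 and Mir18, of the proliferation-linked miR-17-92 cluster, and 1.03-fold for Mir540 and Mir665, both higher in replicate 1, and 1.04-fold for Mir154 and Mir496a, lower in replicate 1. Shifts among neighbours thus ran from 1.01-fold to 7.51-fold, and that of Mir221 with Mir222, at 2.43-fold, was within this range. Outside chromosome 12, 3 of 27 other pairs shifted more than Mir221 and Mir222, and the median was 0.73 on the absolute log2 scale. These 3, looked up after their values were seen, were Mir93 over Mir106b (3.29-fold higher in replicate 1), Mir16-1 over Mir15a (2.95-fold higher in replicate 1) and Mir191 over Mir425 (2.47-fold higher in replicate 1). In level, the genes of the pair were closer to each other than most neighbours, as 46 of the 61 other pairs had a larger gap between their means and the median gap was 2.67 on the log2 scale, against 1.40 for Mir221 over Mir222.

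**Figure D2:**
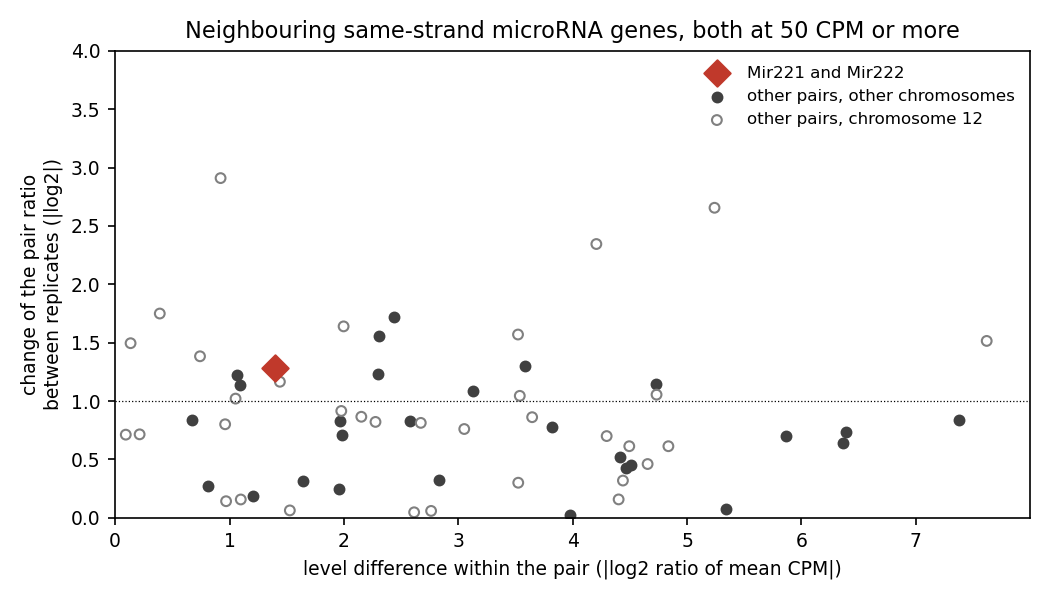
Change of the ratio within a pair between replicates (absolute log2, vertical axis) against the level difference within the pair (absolute log2 ratio of mean CPM, horizontal axis) for neighbouring same-strand microRNA genes with both genes at 50 CPM or more. The red diamond is Mir221 with Mir222, at 1.40 and 1.28, and the dotted line marks a 2-fold change. Filled points are the 27 other pairs outside chromosome 12 and open points the 34 on it.

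Each gene was also set against all others between the libraries, with a two-sided exact binomial test on 496 genes with at least 10 counts in total, given TMM-scaled library sizes. The test compares the 2 libraries and not conditions. It called 280 of 496 genes (56.5%), 152 of them (30.6%) higher in replicate 1 and 128 (25.8%) higher in replicate 2, and it called all 84 genes with at least 10000 counts in total. The sizes of the ratios are therefore compared here rather than the calls.

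Mir222 was 2.06-fold lower in replicate 1 than in replicate 2 (log2 ratio -1.04, 95% interval -1.10 to -0.99, adjusted p of 1e-300). On library totals it was 2.42-fold lower (log2 ratio -1.27). Of the 231 genes averaging 50 CPM or more, 27 had a larger absolute log2 ratio than Mir222, and the median was 0.42. Mir222 was thus among the 32 of these genes (13.9%) that were over 2-fold apart.

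Mir221 was 1.18-fold higher in replicate 1 (log2 ratio 0.24, interval 0.20 to 0.27, adjusted p 1.89e-47 by the same exact binomial test). That call rests on the scaling, since on library totals the log2 ratio was 0.0077 (interval -0.024 to 0.039, adjusted p 0.73). TMM moved every log2 ratio by 0.23 relative to library totals. With library totals 102 genes were higher in replicate 1 and 180 in replicate 2, against 152 and 128 with TMM. After TMM scaling Mir221 lay below the median absolute log2 ratio of 0.42 and Mir222 above it.

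**Figure D3:**
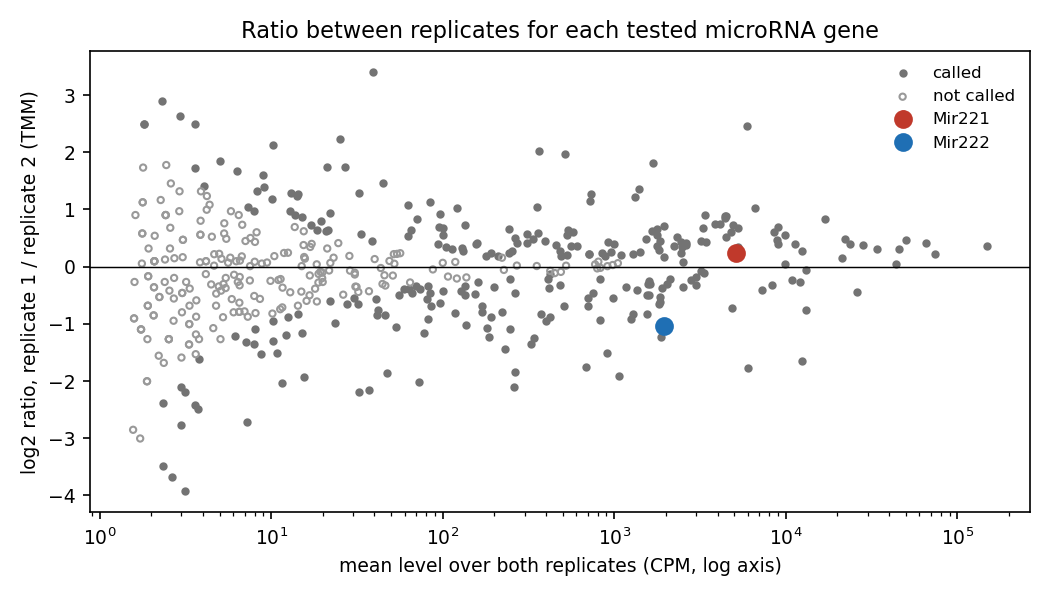
Log2 ratio of replicate 1 over replicate 2 after TMM scaling (vertical axis) against mean CPM (logarithmic horizontal axis) for each tested microRNA gene with counts in both libraries. Filled grey points passed the adjusted threshold of 0.05 and open points did not. Mir221 (red) lies at 0.24, and Mir222 (blue) lies at -1.04, with counting intervals narrower than the symbols.

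The order of levels around Mir221 was not resolved by these libraries. The genes just above it were Mir29a (5296 ± 287 CPM), known from maturing brain, Mir383 (5273 ± 1140 CPM) and the neuronal gene Mir138-1 (5122 ± 13.4 CPM). The genes just below it were Mir411 (5097 ± 154 CPM), of the Dlk1-Dio3 cluster, Mir26b (4890 ± 1204 CPM), of a Ctdsp1 intron, and Mir92b (4851 ± 2186 CPM). These SDs are on library totals, and scaling acts alike on all genes of a library, so it leaves their order within it unchanged. Mir29a, Mir383 and Mir26b were above Mir221 in replicate 1 and below it in replicate 2, while Mir411 and Mir92b were the reverse. Mir138-1 was above Mir221 in both, at 5132 CPM in replicate 1 and 5113 CPM in replicate 2, which lie within the Poisson intervals of Mir221. Mir222 stood between Mir434 (2028 ± 524 CPM), Mir598 (1961 ± 465 CPM) and Mirlet7f-2 (1956 ± 63.1 CPM) above it and Mir369 (1900 ± 547 CPM), Mir423 (1867 ± 1236 CPM) and Mir431 (1856 ± 204 CPM) below it. The means of 40 other genes fell between the levels of Mir222 in its 2 libraries.

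Likeness of pattern was measured as the distance between log2(CPM + 1) values over both libraries, which with 2 points describes little beyond level and ratio. For Mir221 the nearest gene was Mir138-1, at a distance of 0.0035, with 5132 CPM in replicate 1 and 5113 CPM in replicate 2. Mir411 (0.050), the neuronal gene Mir137 (0.088), Mir29a (0.10) and the X-linked gene Mir361 (0.31) followed. For Mir222 the nearest was Mir423, at 0.19, with 993 CPM in replicate 1 and 2741 CPM in replicate 2. Next came Mir338 (0.28), a gene that promotes oligodendrocyte maturation, then Mir484 (0.30), Mir874 (0.37) and Mir323 (0.43), all lower in replicate 1. Mir222 was not among the 5 genes nearest to Mir221, nor Mir221 among those nearest to Mir222.

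The pair held a sizeable part of the X-linked microRNA counts. Of 142 counted microRNA genes on the X chromosome, 35 had at least 10 counts in both libraries and 89 had 0 in both. X-linked genes held 3.81% of counts in replicate 1 and 3.77% in replicate 2, and Mir221 with Mir222 made up 16.4% of these in replicate 1 and 20.8% in replicate 2. Mir221 was second on the chromosome, after Mir652 (12473 ± 320 CPM) and before Mir361 (4769 ± 885 CPM), Mir98 (3442 ± 352 CPM), a member of the let-7 family, and Mir676 (2434 ± 20.2 CPM). Mir222 was seventh, behind Mirlet7f-2.

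Most other X-linked genes did not differ in the direction of Mir222. Of the 20 others averaging 50 CPM or more, 14 were called higher in replicate 1, 3 were called higher in replicate 2 and 3 were not called, where the 231 genes at that level gave 115 calls toward replicate 1 and 89 toward replicate 2. On library totals 9 of the 20 were called higher in replicate 1 and 7 higher in replicate 2, beside 80 and 116 of the 231. The 3 higher in replicate 2 after TMM scaling were Mir500 (99.4 CPM in replicate 1 and 273 CPM in replicate 2), Mir505 (116 CPM in replicate 1 and 191 CPM in replicate 2) and Mir542 (46.7 CPM in replicate 1 and 72.0 CPM in replicate 2), named here after their values were seen. Over the 33 other detected X-linked genes, the median log2 ratio was 0.25 after TMM scaling, beside 0.054 over all 395 detected genes. Library totals lower both medians by the same 0.23, the X-linked one to 0.017, so the gap between them is unchanged. Mir221, at 0.24, lay close to the X-linked median.

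**Figure D4:**
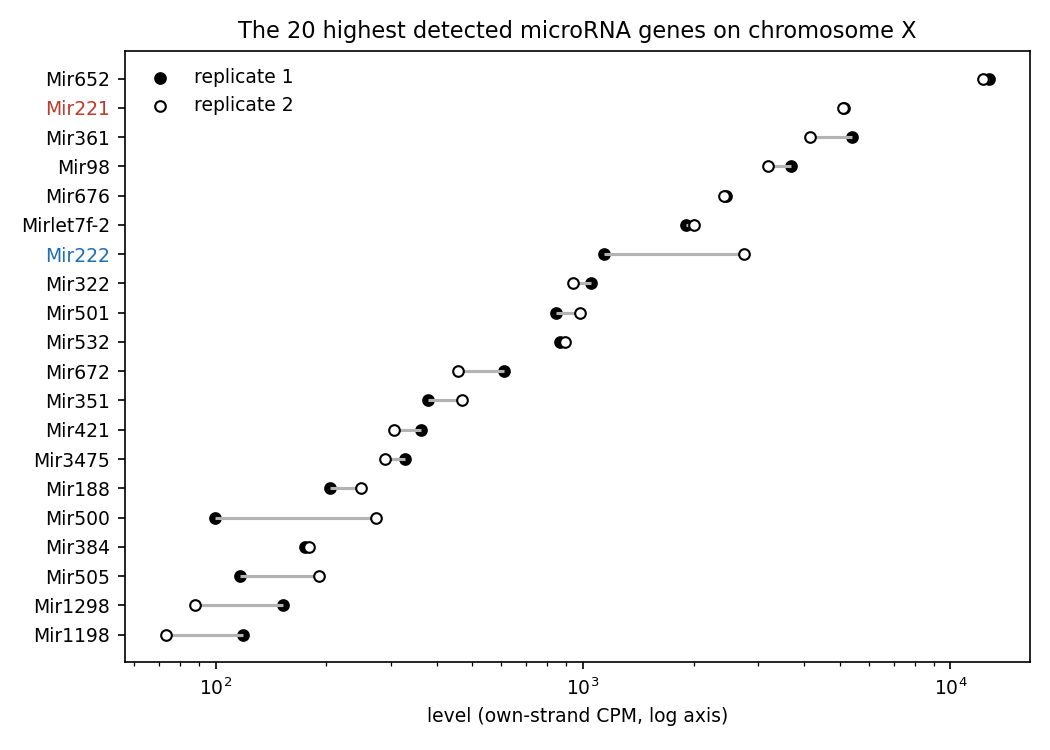
Levels of the 20 highest detected X-linked microRNA genes as own-strand CPM on a logarithmic axis, with replicate 1 as filled points and replicate 2 as open points. The points of Mir221 nearly coincide. Those of Mir222 lie at 1137 CPM in replicate 1 and 2748 CPM in replicate 2, the widest gap in ratio among the 10 highest genes. Mir500, lower in level, has a wider gap, at 99.4 CPM in replicate 1 and 273 CPM in replicate 2.

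Because Mir221 and Mir222 are known from vascular cells, markers of several cell types were set beside them. In bulk tissue, fewer cells of a type and less of the microRNA per cell cannot be told apart. The endothelial and mural list summed to 12012 CPM in replicate 1 and 12565 CPM in replicate 2, but its genes went different ways. The endothelial gene Mir126a was lower in replicate 1, at 5714 CPM against 8835 CPM in replicate 2 (log2 ratio -0.40). Of the smooth muscle genes, Mir143 had 5506 CPM in replicate 1 and 3493 CPM in replicate 2 (log2 ratio 0.89), and Mir145a had 792 CPM in replicate 1 and 237 CPM in replicate 2 (log2 ratio 1.97). Of the 3 tested genes among the 5 listed, 2 were called higher in replicate 1 and 1 higher in replicate 2. The shares were 30.6% and 25.8% over all tested genes, and 115 and 89 of the 231 genes averaging 50 CPM or more. Mir126b and Mir145b had 0 counts in both libraries. Mir222 thus differed in the direction of Mir126a, by a larger ratio, and opposite to Mir143 and Mir145a. The part of vascular content in the result on Mir222 was not tested.

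Oligodendrocyte genes also went in the direction of Mir222. All 3 were called lower in replicate 1, as were 25.8% of all tested genes (128 of 496, or 180 on library totals), with Mir219a-2 at 2371 CPM in replicate 1 and 3257 CPM in replicate 2, Mir338 at 1289 CPM in replicate 1 and 2364 CPM in replicate 2, and Mir219a-1 at 3 counts in replicate 1 and 17 in replicate 2. The list summed to 3662 CPM in replicate 1 and 5626 CPM in replicate 2. Of the 231 genes averaging 50 CPM or more, 89 were called lower in replicate 1 with TMM and 116 on library totals. Microglia and immune genes went the other way. All 5 tested genes of the 6 listed were called higher in replicate 1, as were 30.6% of all tested genes (152 of 496, or 102 on library totals). Among the 231 genes averaging 50 CPM or more, 115 were called higher in replicate 1 with TMM and 80 on library totals. The lymphocyte gene Mir150 led at 1967 CPM in replicate 1 and 1562 CPM in replicate 2, and Mir142 had 74.6 CPM in replicate 1 and 55.8 CPM in replicate 2. Mir146 had 714 CPM in replicate 1 and 717 CPM in replicate 2. Its log2 ratio was 0.22 after TMM scaling and -0.0074 on library totals. On library totals 3 of the 5 tested genes of the list were called, all higher in replicate 1. The list summed to 2844 CPM in replicate 1 and 2401 CPM in replicate 2, and Mir142b had 0 counts in both.

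Neuron genes summed to 213555 CPM in replicate 1 and 200720 CPM in replicate 2. Of the 7 tested genes among the 9 listed, 4 were called higher in replicate 1 and 2 higher in replicate 2. The shares were 30.6% and 25.8% over all tested genes, and 115 and 89 of the 231 genes averaging 50 CPM or more. On library totals 3 of the 7 were called higher in replicate 1 and 2 higher in replicate 2, beside 80 and 116 of the 231. The third highest, Mir128-1, had 11855 CPM in replicate 1 and 14517 CPM in replicate 2. Red blood cell genes summed to 51.0 CPM in replicate 1 and 75.4 CPM in replicate 2, and Mir451a was the sole one called, at 22.5 CPM in replicate 1 and 41.4 CPM in replicate 2. Mir486 had 19.6 CPM in replicate 1 and 24.0 CPM in replicate 2, and Mir144 had 8.95 CPM in replicate 1 and 9.97 CPM in replicate 2. The liver gene Mir122 had 46.7 CPM in replicate 1 and 51.1 CPM in replicate 2 and was not called. Median log2 ratios were 0.89 for endothelial and mural, 0.56 for microglia and immune, 0.23 for neuron, 0.100 for liver, -0.066 for red blood cell and -0.65 for oligodendrocyte genes, beside -0.0058 over all 496 genes. Library totals lower each of these values by 0.23, which puts the neuron median at 0.0053, the liver value at -0.13 and all 496 genes at -0.23. The part of these cell types in the result on Mir222 was not tested.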

How the data were processed

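The authors deposited read counts per microRNA gene on mm10 with GENCODE M21 (build and annotation per the notes deposited beside each table), as raw counts on either, own and opposite strand. Column roles were read from the values, and the tables have no header. The table's 4 classes of reads outside genes were left out of library sizes, and reads placed at several loci are among them. Names and positions of all 2202 genes matched M21. TMM factors came from edgeR 4.0.16 over genes with at least 10 counts, and size factors from DESeq2 1.42.0, in R 4.3.3. With 1 library a side, no edgeR test could be fitted, so exact binomial and Fisher tests were run on all eligible genes or pairs and adjusted by Benjamini-Hochberg, with 0.05 as threshold. p-values below 1e-300 were written as 1e-300. Both tests were checked on simulated counts that held counting error alone, the binomial test with library totals in place of TMM sizes. That check does not cover other variation between libraries, so it does not bear on the share of genes or pairs called here. Python 3.11.15, scipy 1.17.1, pandas 2.3.3, numpy 2.4.6 and matplotlib 3.10.9 were used.

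The members and lists were chosen with earlier results of these data known. Genes were named by rule, namely the members, the 3 genes above and below each in mean CPM, the 5 nearest in pattern, the 5 highest on the X chromosome, the seed group, the 3 highest of each list, and the 3 largest and smallest shifts among neighbour pairs at 50 CPM. Alleles of the parental strains were not examined. Which aligner and counter were used is not given in the sources used here.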

Additional observations from a re-analysis of the deposited data

How the results depend on the processing

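The lower level of Mir222 in replicate 1, the shift of the pair ratio and the number of called genes (259 to 283) and neighbour pairs (56 to 76) kept their direction and side of the threshold, or stayed within 1.5 times, under the other scalings, count minimums, gaps, strand column and thinning that were run on each. The share called did depend on the count minimum, which mainly adds or removes genes of few counts. It was 273 of 742 tested genes at a minimum of 1 count and 259 of 341 at 50, against 280 of 496 at 10. For neighbour pairs the share was 60.3% at a minimum of 1 count and 82.7% at 50, against 78.7% at 10. The count minimums could not change the log2 ratio of Mir222. Nor could the strand column change the pair ratio, because both genes had the same counts in the either-strand and own-strand columns. Mir221 was no longer called on library totals (log2 ratio 0.0077), where the scaling itself makes the difference. Its mean was 5479 CPM with the either-strand column, whose total is smaller, 5135 CPM with DESeq2-scaled sizes and 1792 when scaled to all reads of the library in place of gene counts, and that of Mir222 was 677 when scaled to all reads. Leaving out each replicate gave 5101 to 5128 CPM for Mir221, 1137 to 2748 CPM for Mir222 and 65.0% to 81.8% for the share of Mir221 in the pair. At a minimum of 100 counts 22 X-linked genes were detected, against 35 at 10. No paired analysis was possible because the labels give 1 group. With 2 libraries, differences between animals and between library preparations cannot be told apart.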
